A study of Homo sapiens with 26 samples.

Results

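DEX 60 min against DEX 20 min is the comparison of mammary epithelial cells that had been exposed to the synthetic glucocorticoid dexamethasone (DEX) for 1 h with cells exposed to it for 20 min. Its members are 4 of the 26 exon arrays of the series, namely 2 arrays of cells given 100 nM DEX for 60 min and 2 arrays of cells given 100 nM DEX for 20 min, chosen by the treatment and time in their titles. The cells of all 4 arrays were MCF10A, an established non-tumorigenic human mammary epithelial line, which had been starved before DEX was added and which received no EGF in these groups. Before starvation the growth medium held hydrocortisone, also a glucocorticoid, and EGF. EGF groups received EGF at 10 ng per ml and EGF+DEX groups received both agents at the same doses. Untreated cells at 0 min (2 arrays) were not part of the contrast and are given as the starting level. No untreated arrays of the later times were used here, so time with DEX and time in the assay cannot be told apart in the contrast itself. The replicates are told apart by number alone, so the spread between them may be technical. The p-values rest on that spread pooled over all groups with 2 arrays, not on these 4 arrays alone.

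DEX enters the cell and binds the glucocorticoid receptor (GR), a nuclear receptor held in the cytoplasm by chaperones. The bound receptor moves to the nucleus, where it raises transcription of some genes from glucocorticoid response elements (GREs) and lowers others, either through inverted repeat negative elements (IR nGREs) or by acting on other transcription factors. In mammary epithelium the receptor is known for inducing ion channels, metabolic switches and inhibitors of growth factor signalling. A comparison of 60 with 20 min asks which transcripts had moved between the first minutes and the end of the first hour, that is, when induction and repression set in.

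Of the 16600 genes tested, 42 (0.253%) passed the test, defined as an adjusted p under 0.05 in limma together with a change of at least 1.5-fold, and these are called below. The called genes were higher at 60 min in 28 cases (0.169% of the genes tested) and lower in 14 (0.0843%). The rises ran from 1.52-fold for ARHGEF5 to 3.84-fold for SCNN1G, with a median of 1.94-fold, and the falls from 1.58-fold for THAP7 to 2.53-fold for PLK2, with a median of 1.84-fold. In all 28 and all 14 the 60 min arrays lay apart from the 20 min arrays, which was also true of 19.0% of all genes in the upward and 29.5% in the downward direction. An unadjusted p under 0.05 was reached by 12.0% of the genes, and the median difference over all genes was -0.03 on the log2 scale. Both 60 min arrays were slightly dimmer than both 20 min arrays, with median probeset levels of 5.28 and 5.29 at 60 min and 5.33 and 5.32 at 20 min, and with 61.1 and 61.3% of probesets above background at 60 min and 62.0 and 61.7% at 20 min. The part of this in the changes was not tested as such; with quantile normalization, which sets the arrays to the same distribution, 40 genes were called higher and 14 lower. The genes nearest to the threshold were FAP and HES1 (adjusted p = 0.0371) and ZNF100 (0.0442) on the inside, and OGFRL1, GLUL, NOC3L, RHOB and SEMA6A (0.0504) on the outside.

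**Figure D1:**
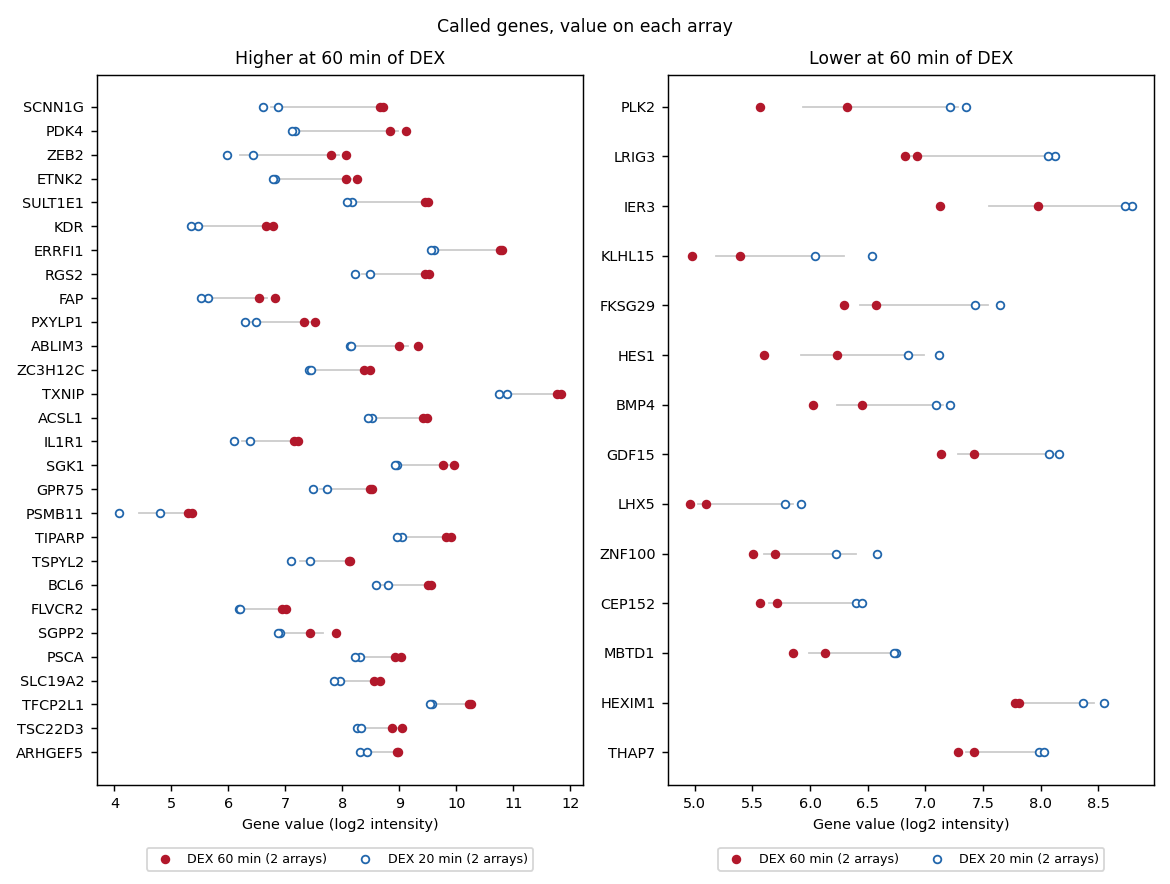
Gene value on each array (log2 intensity, x axis) for the 28 genes called higher and the 14 called lower at 60 min of DEX, ordered by the size of the difference. Filled points are the 2 arrays at 60 min, open points the 2 arrays at 20 min, and the grey line joins the group means. The 60 min points lie to the right of the 20 min points for every gene of the left panel and to the left of them in the right panel.

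The start-site regions of these genes were searched for letters that GR is known to read. Matches were few, and whether their shares differed from those of all genes tested was not tested. RefSeq promoters of 300 bases (250 before and 50 after the annotated start, GRCh38.p14) were matched by symbol to 25 of the 28 raised and 12 of the 14 lowered genes. Both strands were searched. The full palindromic GRE (AGAACA and TGTTCT with 3 bases between them) was in none of them, nor in any of the 13021 promoters of the genes tested. Its core, ACANNNTGT, was in 2 of the 25 raised genes (8.0%), TXNIP and TSC22D3, and in 0 of the 12 lowered genes, against 3.12% of the genes tested. The single hexamer AGAACA, which overlaps the palindrome, was in PDK4, KDR and SGPP2 among the raised (12.0%) and in KLHL15 among the lowered genes (8.33%), against 9.78% of the genes tested. IR nGREs, searched as CTCC and GGAGA with 0 to 2 bases between them, were found in ERRFI1 (4.0% of the raised genes) and in 0 of the lowered genes, against 1.87%. A match is a description of the letters in the window, and most GR binding sites lie outside windows of this kind. The 4 promoters are shown because they hold these letters and belong to genes with large or well known responses, with the matched core, hexamer (as its reverse complement in PDK4) or IR nGRE in capitals, 5′ to 3′ on the strand of the gene.
TSC22D3, chrX:107775939-107776238, minus strand: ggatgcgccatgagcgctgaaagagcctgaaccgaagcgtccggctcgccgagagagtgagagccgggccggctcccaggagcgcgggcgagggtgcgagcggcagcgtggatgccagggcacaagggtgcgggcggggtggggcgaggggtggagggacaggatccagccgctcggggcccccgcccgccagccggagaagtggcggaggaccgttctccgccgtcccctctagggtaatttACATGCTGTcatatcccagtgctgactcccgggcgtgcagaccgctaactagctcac
TXNIP, chr1:145996530-145996829, minus strand: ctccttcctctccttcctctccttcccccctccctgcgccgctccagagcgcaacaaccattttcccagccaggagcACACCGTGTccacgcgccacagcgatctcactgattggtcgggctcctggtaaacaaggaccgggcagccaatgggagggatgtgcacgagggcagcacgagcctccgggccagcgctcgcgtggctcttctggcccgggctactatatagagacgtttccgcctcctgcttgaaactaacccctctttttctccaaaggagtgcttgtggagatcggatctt
ERRFI1, chr1:8026260-8026559, minus strand: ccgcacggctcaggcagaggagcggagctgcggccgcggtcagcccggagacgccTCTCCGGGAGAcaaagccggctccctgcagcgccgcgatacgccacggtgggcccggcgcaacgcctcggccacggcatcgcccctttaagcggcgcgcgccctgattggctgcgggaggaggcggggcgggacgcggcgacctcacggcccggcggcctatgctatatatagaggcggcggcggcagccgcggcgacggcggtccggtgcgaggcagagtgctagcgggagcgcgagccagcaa
PDK4, chr7:95596467-95596766, minus strand: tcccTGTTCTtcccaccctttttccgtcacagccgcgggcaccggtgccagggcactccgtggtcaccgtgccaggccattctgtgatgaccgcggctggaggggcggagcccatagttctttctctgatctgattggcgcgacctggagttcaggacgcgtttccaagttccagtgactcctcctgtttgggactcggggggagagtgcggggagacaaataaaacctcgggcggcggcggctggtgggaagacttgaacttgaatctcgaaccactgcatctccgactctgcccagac

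The largest rise was that of an ion channel subunit. SCNN1G, the gamma subunit of the epithelial sodium channel, had values of 8.71 and 8.67 (log2 intensity) on the 60 min arrays and 6.61 and 6.88 on the 20 min arrays. The groups were far apart and all 17 of its probesets were higher, with a difference of 1.94 on the log2 scale (SE 0.17, adjusted p = 2.01e-05). SGK1, the serum- and glucocorticoid-induced kinase that keeps this channel at the cell surface, read 9.96 and 9.77 at 60 min against 8.96 and 8.92 at 20 min (difference 0.92, SE 0.16, adjusted p = 0.016). Of the 21 SGK1 probesets, 16 were higher and 3 lower on both 60 min arrays than on both 20 min arrays. SGK1 lost the call in 6 of 11 alternatives tried. Among these were the mean of probesets and only the compared arrays in the fit. TSC22D3 encodes the glucocorticoid-induced leucine zipper GILZ and carries the GRE core shown above. It read 8.87 and 9.05 at 60 min and 8.26 and 8.33 at 20 min (difference 0.67, SE 0.12, adjusted p = 0.0258). TSC22D3 also lost the call in 6 of 11 alternatives tried. These 3 were the called members of a list of ion transport and SGK1 genes, of which 13 of 16 were measured; limma called 0 lower and 0 had a negative difference at an unadjusted p under 0.05, and the differences ran down to -0.16. The alpha subunit SCNN1A (0.01) and the beta subunit SCNN1B (0.23, adjusted p = 0.525) did not pass, so that within the channel the gamma subunit alone was called. Of 2 other transporters that rose, SLC19A2 carries thiamine (difference 0.70, adjusted p = 0.022) and FLVCR2 belongs to the family of haem and choline carriers (0.78, adjusted p = 0.0231).

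Enzymes and regulators of fuel use formed the next group. PDK4, the pyruvate dehydrogenase kinase that turns cells from glucose to fatty acid oxidation, read 8.84 and 9.12 at 60 min against 7.17 and 7.11 at 20 min. It was higher on all 16 probesets, by 1.84 on the log2 scale (SE 0.15, adjusted p = 1.99e-05), which is 3.59-fold. ACSL1, which activates long-chain fatty acids, read 9.41 and 9.49 at 60 min and 8.52 and 8.45 at 20 min (difference 0.97, SE 0.13, adjusted p = 0.00202). TXNIP, which binds thioredoxin and restrains glucose uptake, was the brightest called gene, at 11.84 and 11.77 at 60 min and 10.74 and 10.89 at 20 min (difference 0.99, SE 0.14, adjusted p = 0.00355). In the list of FOXO, insulin signalling and fuel switch genes all 18 members were measured; PDK4 and ACSL1 were called higher, limma called 0 lower, where 0 had an unadjusted p under 0.05 in that direction and the lowest difference was -0.26, and the median was 0.06. PIK3R1, the regulatory subunit of phosphoinositide 3-kinase (0.58, adjusted p = 0.0577), and GLUL, glutamine synthetase (0.73, adjusted p = 0.0504), were next in size. FOXO3, a transcription factor of the insulin pathway, had an adjusted p of 0.0364 with a difference of 0.56, below the fold minimum.

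Several raised genes act on lipids, steroids and sugars. SULT1E1, the sulfotransferase that inactivates oestrogens, read 9.45 and 9.50 at 60 min and 8.16 and 8.08 at 20 min (difference 1.35, SE 0.18, adjusted p = 0.0011). ETNK2, an ethanolamine kinase of phospholipid synthesis, read 8.06 and 8.25 at 60 min and 6.82 and 6.78 at 20 min (difference 1.36, SE 0.13, adjusted p = 3.21e-05). In both genes the arrays of each time lay close together and the times far apart. SGPP2, a sphingosine 1-phosphate phosphatase, rose by 0.78 (adjusted p = 0.0364), with one 60 min array (7.89) well above the other (7.44) and both above the 20 min arrays (6.91 and 6.87). PXYLP1, a phosphatase of proteoglycan linker synthesis listed on the platform under its older symbol ACPL2, rose by 1.04 (adjusted p = 0.0371).

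Among inhibitors of receptor signalling, ERRFI1 and RGS2 rose. ERRFI1 (also MIG6), which binds the EGFR kinase domain and shuts it off, read 10.80 and 10.77 at 60 min and 9.62 and 9.55 at 20 min. The difference of 1.20 (SE 0.12, adjusted p = 8.84e-05) is 2.29-fold, and 10 of its 11 probesets were higher on both 60 min arrays than on both 20 min arrays. RGS2, which speeds the turn-off of G protein subunits, read 9.45 and 9.53 at 60 min and 8.21 and 8.49 at 20 min (difference 1.14, SE 0.12, adjusted p = 0.000102). It was the only called member among 17 of 19 measured genes of G protein and cAMP signalling. ERRFI1 and LRIG3, whose fall is described below, were the called members of a list of inhibitors of EGFR and ERK signalling. Of its 30 members 29 were measured, with a median of -0.06, and 3 were higher and 6 lower at an unadjusted p under 0.05. Over all genes this share was 12.0%, both directions together. SPRY1, an inhibitor of receptor tyrosine kinase signalling, differed by 0.61 (adjusted p = 0.071) and DUSP4, a nuclear MAP kinase phosphatase, by -0.62 (adjusted p = 0.188).

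Receptors and other surface proteins formed another group. KDR, the VEGF receptor VEGFR2, read 6.66 and 6.78 at 60 min and 5.46 and 5.34 at 20 min (difference 1.32, SE 0.17, adjusted p = 0.00109). IL1R1, the signalling receptor of interleukin-1, read 7.22 and 7.15 at 60 min and 6.37 and 6.10 at 20 min (difference 0.95, SE 0.15, adjusted p = 0.00965). GPR75, an orphan G protein-coupled receptor, rose by 0.90 (adjusted p = 0.00355) and PSCA, a GPI-anchored surface antigen, by 0.71 (adjusted p = 0.0364). FAP, a surface protease best known from activated fibroblasts, read 6.83 and 6.54 at 60 min and 5.65 and 5.51 at 20 min (difference 1.10, SE 0.22, adjusted p = 0.0371). KDR and FAP are dim, with means over all 26 arrays of 5.80 and 5.96, below the stricter background of 5.97. With the stricter brightness filter on its probesets KDR fell short of the test (0.29, adjusted p = 0.393), and with no filter it was 1.56.

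Transcription factors and chromatin-linked proteins made up a further set. ZEB2, the zinc-finger repressor of E-cadherin, read 7.81 and 8.07 at 60 min and 6.42 and 5.97 at 20 min (difference 1.74, SE 0.19, adjusted p = 0.000135), the third largest rise. BCL6, a transcriptional repressor, read 9.51 and 9.56 at 60 min and 8.80 and 8.60 at 20 min (difference 0.83, SE 0.14, adjusted p = 0.016). TFCP2L1, an epithelial transcription factor, rose by 0.70 (adjusted p = 0.0364), TIPARP, a mono-ADP-ribosyltransferase, by 0.87 (adjusted p = 0.0225) and TSPYL2, a nucleosome assembly protein family member, by 0.87 (adjusted p = 0.00649). ABLIM3, an actin-binding LIM protein, rose by 1.02 (adjusted p = 0.000786) and ARHGEF5 by 0.60 (adjusted p = 0.0371). ZC3H12C, an RNase of the regnase family, rose by 1.00 (adjusted p = 0.0231). PSMB11, the thymus proteasome subunit, completes the 28. It rests on 3 probesets, of which 1 was higher throughout, and read 5.35 and 5.29 at 60 min and 4.08 and 4.80 at 20 min. PSMB11 is dim, with a mean over all arrays of 5.11, below the stricter background of 5.97. PSMB11 lost the call in 7 of 10 alternatives tried. Among these were no brightness filter, the mean of probesets and the trend and robust options of limma.

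The fall that stood out was that of LRIG3, a leucine-rich repeat membrane protein. It read 6.93 and 6.82 at 60 min against 8.12 and 8.07 at 20 min, with 24 of its 25 probesets lower on both arrays. The difference was -1.22 (SE 0.13, adjusted p = 0.000135), 2.32-fold lower at 60 min. PLK2, a polo-like kinase induced by growth factors and stress, had the largest fall, -1.34 (SE 0.23, adjusted p = 0.016), but its 60 min arrays differed from each other, at 6.32 and 5.56, against 7.35 and 7.22 at 20 min. IER3, an immediate early gene that modulates ERK and cell survival, read 7.98 and 7.12 at 60 min and 8.79 and 8.73 at 20 min (difference -1.21, SE 0.23, adjusted p = 0.0364). HES1, the bHLH repressor downstream of Notch, read 6.23 and 5.60 at 60 min and 7.11 and 6.85 at 20 min (difference -1.07, SE 0.21, adjusted p = 0.0371). In PLK2, IER3 and HES1 the second 60 min array was the lower one, and the groups still did not overlap.

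Secreted factors were among the lowered genes. BMP4, a bone morphogenetic protein, read 6.45 and 6.02 at 60 min and 7.21 and 7.09 at 20 min (difference -0.91, SE 0.16, adjusted p = 0.0165). It was the called member of the TGF-beta family and feedback list, with all 18 members measured and a median of -0.18. GDF15, a stress-induced cytokine of the same superfamily, read 7.42 and 7.14 at 60 min and 8.16 and 8.07 at 20 min (difference -0.84, SE 0.16, adjusted p = 0.0369). HEXIM1, which holds the elongation factor P-TEFb inactive, read 7.78 and 7.81 at 60 min and 8.55 and 8.37 at 20 min (difference -0.67, SE 0.13, adjusted p = 0.0371). The other lowered genes were KLHL15, a ubiquitin ligase adaptor (-1.11), FKSG29 (-1.11), LHX5, a homeobox factor (-0.82), ZNF100, a zinc-finger protein (-0.80), CEP152, a centriole duplication protein (-0.78), MBTD1, a chromatin reader (-0.74), and THAP7, a THAP-domain repressor (-0.66). FKSG29 rests on 3 probesets, KLHL15 and LHX5 on 4 each, and LHX5 (mean 5.47) lies below the stricter background. ZNF100 lost the call in 9 of 11 alternatives tried, and CEP152 and THAP7 in 8 of 11 each. Of the 10 THAP7 probesets, 6 were lower and 2 higher on both 60 min arrays than on both 20 min arrays. Of the lowered genes 14 were called with all arrays, and 1 to 5 genes were called lower when 1 of the 4 arrays was left out (1 without either 20 min array, 5 without the first and 2 without the second 60 min array), LRIG3 each time. For the raised genes the counts were 28 and 9 to 12.

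For most raised genes the larger step of the difference lay before 40 min, and for most lowered genes after it, though few single steps passed the test. Of the 28 raised genes, 6 were called higher at 40 against 20 min and 3 at 60 against 40 min, and of the 14 lowered genes 0 and 2 were called lower. Among the 28 raised genes the median difference between 40 and 20 min was 0.64 and that between 60 and 40 min was 0.29, and 19 of the 28 had the larger step before 40 min. Among the 14 lowered genes the medians were -0.22 and -0.69, and 2 of the 14, IER3 and CEP152, had the larger step before 40 min. Leaving out any single DEX array of the 3 times gave 19 to 20 of the 28 and 2 to 4 of the 14. The median first step was 66.6% of the median whole difference in the raised genes and 24.8% in the lowered genes. Without 1 array it was 60.3 to 72.0% in the raised genes, and in the lowered genes it was 12.3% without the second and 33.8% without the first 40 min array. These shares use the 20 and 60 min arrays that chose the genes and are a description. Steps to and from 40 min share the 40 min arrays, and the difference in timing between the 2 sets was not tested.

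**Figure D2:**
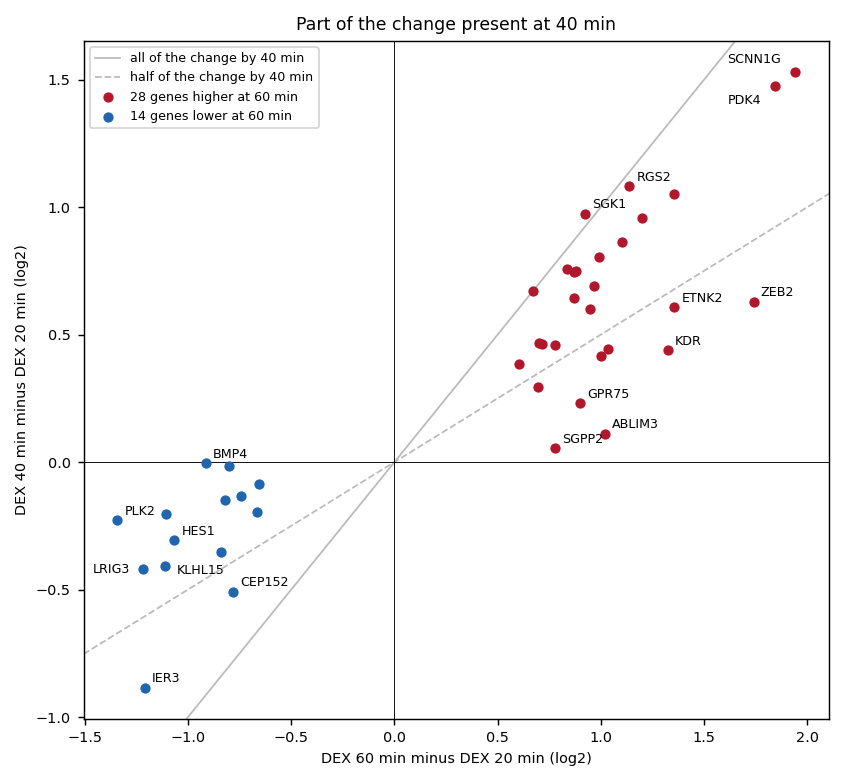
Difference between DEX 40 and DEX 20 min (y axis, log2) against the difference between DEX 60 and DEX 20 min (x axis, log2) for the 28 genes higher and the 14 genes lower at 60 min. On the solid line the whole difference was present at 40 min, and on the dashed line an equal share came before and after 40 min; most raised genes lie between the lines or near the solid one, while BMP4 at -0.0035 and SGPP2 at 0.054 lie near 0 at 40 min.

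Single genes ranged widely within each set. As a share of its own difference, SGK1 (105.6%), TSC22D3 (100.4%), RGS2 (95.2%) and BCL6 (90.9%) had their full or nearly full level at 40 min. SCNN1G (78.8%), PDK4 (80.0%), ERRFI1 (79.8%) and SULT1E1 (77.6%) were close behind. At the other end stood SGPP2 (6.97%), ABLIM3 (10.9%), GPR75 (25.6%), KDR (33.2%), ZEB2 (36.1%) and ETNK2 (44.7%), whose larger step lay in the last 20 min. Among the lowered genes the shares ran from 0.380% for BMP4 and 1.94% for ZNF100 to 64.8% for CEP152 and 73.2% for IER3, with LRIG3 at 34.6%. The tests of the single steps called 8 genes at 40 against 20 min (0.0482%), all higher: SCNN1G (1.53), PDK4 (1.48), TNFAIP3 (1.32), RGS2 (1.08), SULT1E1 (1.05), SGK1 (0.97), ERRFI1 (0.96) and EAF2 (0.76). limma called 0 genes lower at 40 min, where 6.90% of the genes in both directions had an unadjusted p under 0.05, and the counts at 40 min ran from 0 to 24 over the alternatives tried. Without the first 40 min array 24 genes were called, 7 higher and 17 lower, and in every other alternative tried 0 were called lower. Between 60 and 40 min the test called 8 genes (0.0482%), 5 higher (0.0301%) and 3 lower (0.0181%), where 16.2% had an unadjusted p under 0.05. Those also called at 60 against 20 min were ZEB2 (1.11), ABLIM3 (0.91), ETNK2 (0.75), LRIG3 (-0.80) and BMP4 (-0.91). The other 3 were CNGB3 (0.91), CTGLF1 (-0.93) and 1 dim gene that rose and is not named here. Without the first 40 min array 37 genes were called, 34 higher and 3 lower, and without the second 60 min array 0. The 3 comparisons share arrays, so their calls are not independent of each other. TNFAIP3, an inhibitor of NF-kB signalling, stood at 1.05 at 60 against 20 min (adjusted p = 0.0653).

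Some raised genes stood above the untreated level at 20 min already, a difference that was not tested. RGS2 read 6.53 and 6.58 in untreated cells, and its 20 min mean was already 1.80 above them. The mean at 20 min was above the untreated mean by 1.08 for ERRFI1, 0.90 for SCNN1G, 0.83 for SGK1, 0.81 for TSC22D3, 0.72 for PDK4 and 0.55 for TXNIP, so that the rise between 20 and 60 min was a further step for these genes. For ZEB2, ETNK2, ABLIM3, IL1R1, ACSL1 and BCL6 the 20 min mean was at or below the untreated one (-0.16, -0.18, -0.09, -0.27, -0.01 and -0.14). Over the 28 raised genes the median difference of 20 min from untreated was 0.08, and 17 were above it. Among the lowered genes the median was 0.09, and 4 of 14 were below the untreated mean at 20 min. LHX5 and BMP4 were 0.69 and 0.25 above the untreated mean at 20 min, so part of their fall was in the direction of the untreated level. Other genes stood apart from the untreated arrays at 20 min with little difference afterwards. DUSP1, a MAP kinase phosphatase, was 1.87 and KLF6, a Krüppel-like factor, 1.01 above untreated at 20 min, and their differences between 60 and 20 min were 0.082 and 0.015 (KLF6 was named after its values were seen).

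**Figure D3:**
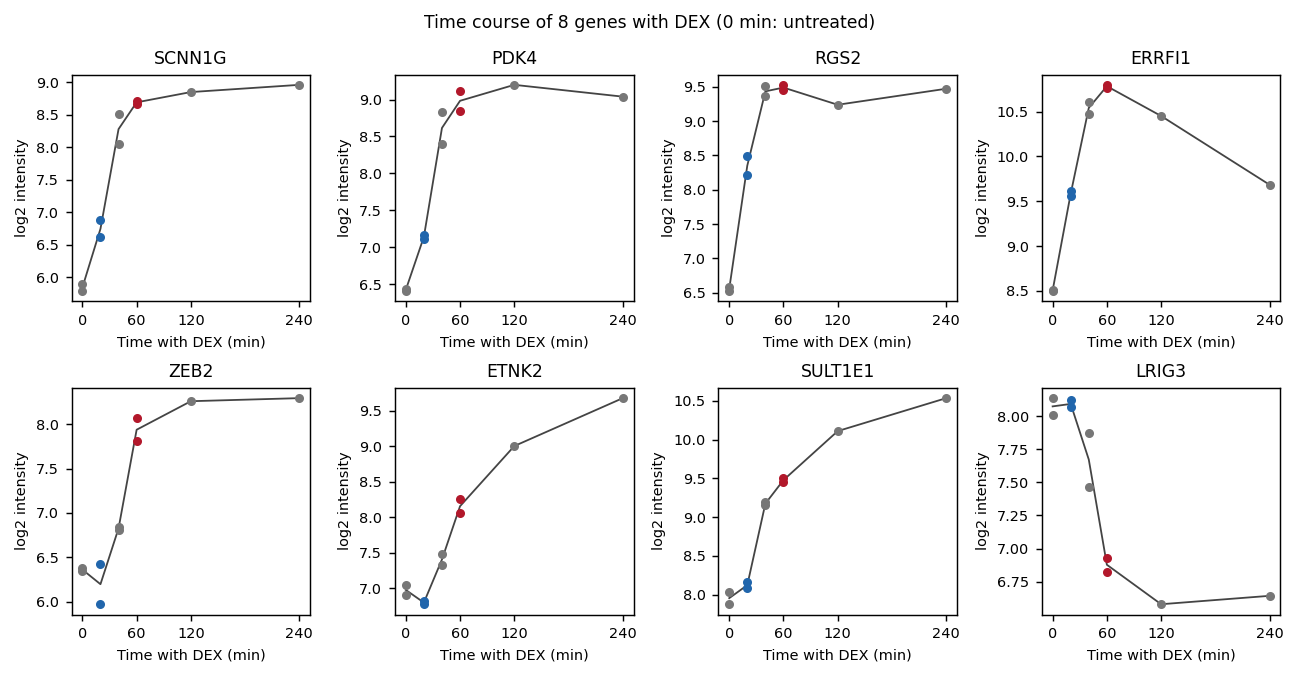
Gene values (log2 intensity, y axis, scaled for each gene) over time with DEX (min, x axis) for the 8 called genes that passed the test in every alternative tried, with each array as a point and the line through the means. Untreated cells stand at 0 min, blue marks 20 min, red marks 60 min, and 120 and 240 min have 1 array each; RGS2 was level from 40 min, ERRFI1 turned down after 60 min and SULT1E1 and ETNK2 stood highest at 240 min.

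The levels at 120 and 240 min, with 1 array each and no test, show what followed. All 28 raised genes were above their 20 min mean at 120 min and 27 of 28 at 240 min, and all 14 lowered genes were below theirs at both times. Over all genes 43.6% were above their 20 min mean at 120 min and 45.5% at 240 min. The 20 and 60 min arrays chose these genes, which fixes part of such counts, so they are a description. Of the 28, 21 stood higher at 120 min than at 60 min and 19 at 240 min, against 51.2% and 48.5% of all genes. SGPP2 was 2.18, ETNK2 1.52, FLVCR2 1.22, KDR 1.18 and SULT1E1 1.06 above their 60 min mean at 240 min. FAP (-1.48), ERRFI1 (-1.10) and GPR75 (-0.76) stood below it. Of the 14 lowered genes 5 were still lower at 120 min and 6 at 240 min, against 48.8% and 51.5% of all genes. The other 9 and 8 stood above their 60 min mean. Those still lower included IER3 (-0.51 and -0.60 from the 60 min mean) and LRIG3 (-0.30 and -0.23).

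The combination of EGF and DEX offered arrays that share none with DEX alone. Both comparisons use the same estimate of the spread of each gene, so their calls are not fully independent. Between 60 and 20 min of EGF+DEX 47 genes (0.283%) were called, 40 higher and 7 lower (0.0422%). Of the 28 genes raised with DEX, 27 had a positive difference there and 16 were called higher, against 49.6% of all genes above 0 and 0.241% called higher. The median difference of the 28 was 0.83 with EGF+DEX and 0.96 with DEX, and 26 reached an unadjusted p under 0.05. SCNN1G differed by 2.11, GPR75 by 1.28, PDK4 by 1.13, ZEB2 by 1.12 and ABLIM3 by 1.02. BCL6 was the exception in sign (-0.17, adjusted p = 0.901), and PSMB11 stood at 0.03. Of the lowered genes, 10 of 14 had a negative difference with EGF+DEX, 1 was called lower (LRIG3, -0.71, adjusted p = 0.0273), and the median was -0.26 against -0.88 with DEX. PLK2 had -0.99 (adjusted p = 0.103) and BMP4 0.39. The raised genes had a median of 0.73 from 20 to 40 min of EGF+DEX and 0.0052 from 40 to 60 min. The second value ran from -0.10 to 0.13 without 1 array. The lowered genes had medians of -0.12 and -0.20, but -0.0033 and -0.18 without the first 40 min array and -0.25 and -0.11 without the second, so the order of the steps turned with 1 array. Whether the changes differed between DEX and EGF+DEX was not tested.

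With EGF alone 1 of these genes was called between the same times. Between 60 and 20 min of EGF 10 genes (0.0602%) were called, 9 higher (0.0542%) and 1 lower (0.00602%). Of the 28 genes raised with DEX, 11 had a positive difference with EGF, against 51.8% of all genes, and the median was -0.06. The test called 1 of the 28, GPR75 (0.81, adjusted p = 0.0292). Of the 14 lowered genes 7 had a negative difference, 0 were called by limma, and the median was also -0.06; the unadjusted share of all genes in this comparison was 8.11%. The direct test of the difference, the change with DEX minus the change with EGF, called 30 genes (0.181%), 17 higher (0.102%) and 13 lower (0.0783%), and 9.81% had an unadjusted p under 0.05. PDK4 (1.84 with DEX and -0.41 with EGF, a difference of 2.25, adjusted p = 0.000176), SCNN1G (1.94 and -0.16, 2.10) and ZEB2 (1.74 and -0.17, 1.90) led those higher with DEX. ERRFI1, which had 1.20 with DEX and 0.31 with EGF, was called with a difference of 0.89 (adjusted p = 0.0459). Among those lower with DEX were EREG and HBEGF, ligands of the EGFR family. EREG differed by -0.80 with DEX and 1.17 with EGF (difference -1.97, adjusted p = 0.0117), and HBEGF by -0.25 and 1.35 (difference -1.60, adjusted p = 0.00705). Neither passed the test with DEX alone. This test shares its DEX arrays with the comparison that chose the 42 genes.

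**Figure D4:**
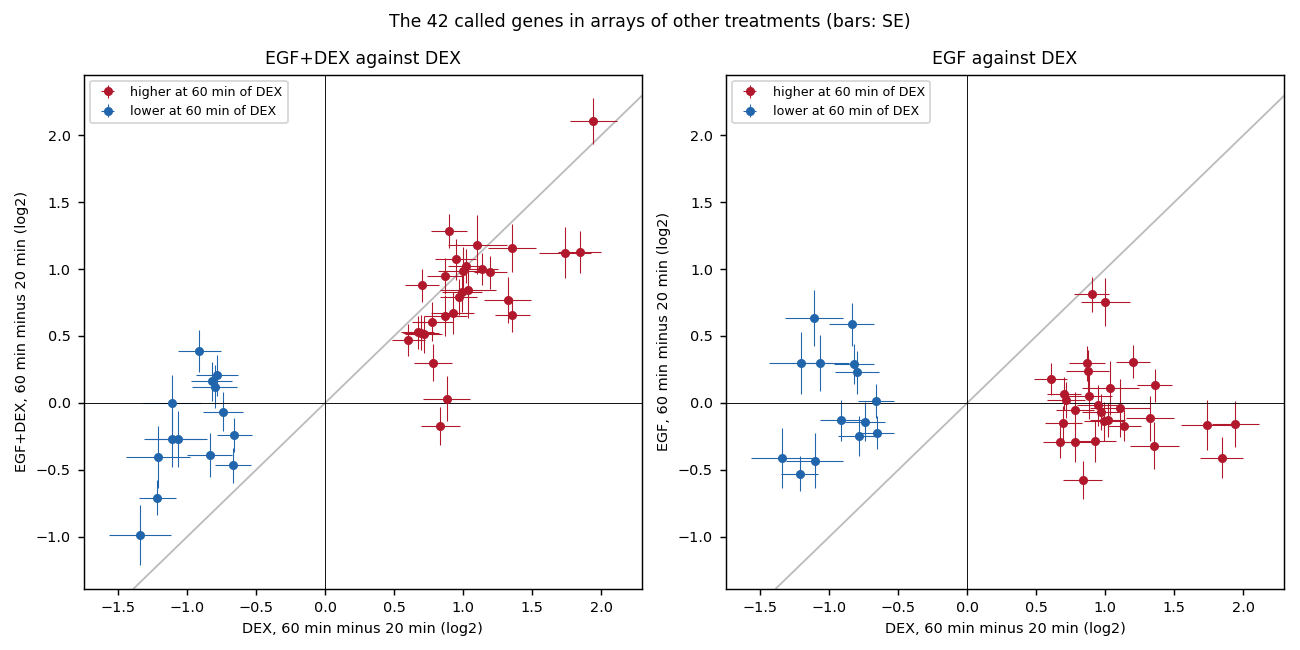
Difference between 60 and 20 min with EGF+DEX (left panel, y axis, log2) and with EGF (right panel, y axis, log2) against the difference with DEX (x axis, log2) for the 42 called genes, with standard errors of the fit as bars and the line of equal change in grey. With EGF+DEX 27 of the 28 raised genes lie above 0, and with EGF the raised genes scatter around 0 with a median of -0.06.

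Lists of genes were set beside these calls by their counts and medians, against a median of -0.03 and 0.169% higher and 0.0843% lower over all genes. Over all genes 12.0% had an unadjusted p under 0.05, both directions together. The lists and their members were chosen with earlier results of these data known, so their counts and medians are a description. Of 52 known GR targets 51 were measured; 9 were called higher, limma called 0 lower, where 0 had an unadjusted p under 0.05 in that direction, and the median was 0.35. The 9 were SCNN1G, PDK4, ERRFI1, RGS2, ACSL1, SGK1, BCL6, TFCP2L1 and TSC22D3. Arrays of the 2 times did not overlap for 31 members in the upward and 2 in the downward direction, against the 19.0% and 29.5% given above. Members close to 0 between 20 and 60 min were PER1, a clock gene (0.03), SCNN1A (0.01), MT2A, a metallothionein (0.08), and ANGPTL4, a lipase inhibitor (0.09), and CEBPD, a bZIP factor, stood at -0.23. FKBP5, the receptor's co-chaperone, differed by 0.56 (adjusted p = 0.127), and NR3C1, the receptor itself, by 0.07 (adjusted p = 0.879), reading 8.25 and 8.24 at 60 min and 8.19 and 8.16 at 20 min. In the list of GR and its chaperones limma called 0 of 15 measured members, where 4 had an unadjusted p under 0.05.

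Lists named for EGF signalling held few calls. Of 31 of 32 measured genes in the list of immediate early transcription factors, limma called 0 higher and 2 lower, HES1 and IER3. IER3 is an immediate early gene but not itself a transcription factor. FOS, a component of AP-1, read 7.77 and 6.98 at 60 min and 8.03 and 8.16 at 20 min (difference -0.72, adjusted p = 0.404), and EGR1 read 10.09 and 8.83 against 10.30 and 10.04 (difference -0.71, adjusted p = 0.361). Their 60 min arrays lay further apart than the difference between the times. Of 10 of 11 measured EGFR family ligands limma called 0, where 1, EREG, had an unadjusted p under 0.05, and of the other members TGFA stood at 0.16 and NRG1 at -0.13. The feedback genes SPRY4 (0.0025) and ZFP36L2 (0.28, adjusted p = 0.57) did not pass either. Of 27 of 30 measured cytokines and chemokines 1 was called, GDF15. Of 23 of 24 measured growth arrest and stress genes TXNIP rose and PLK2 fell, and CDKN1B, the cyclin-dependent kinase inhibitor p27, stood at -0.75 (adjusted p = 0.071).

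Other lists held no call by limma at 60 against 20 min. Those of NF-kB regulators and targets (21 measured), Krüppel-like factors (17), circadian clock genes (20) and migration and matrix proteolysis (31) had medians of 0.12, 0.02, -0.03 and 0.01, with 6, 5, 4 and 5 members at an unadjusted p under 0.05. The share over all genes was 12.0%. Within NF-kB genes BIRC3, an inhibitor of apoptosis, stood at 1.04 (adjusted p = 0.0873) and BCL3, a nuclear cofactor of NF-kB, at -0.45 (adjusted p = 0.286). Cholesterol synthesis (10 measured, median -0.16) had 0 members and ribosome biogenesis (12 measured, median -0.15) 3 members at an unadjusted p under 0.05. The mitosis list held no call either. Of its 16 members 15 were measured, and all 15 differences were negative, from -0.65 for KIF11 to -0.16, with a median of -0.40. Over all genes 43.8% of the differences were above 0. The arrays did not overlap for 13 of the 15, against 29.5% of all genes in the downward direction. Of the 15, 7 had an unadjusted p under 0.05, against 12.0% of all genes in both directions together. The mitosis median was -0.43 from 20 to 40 min and 0.01 from 40 to 60 min, and at 20 min the list stood 0.28 above the untreated arrays; with EGF+DEX it was 0.16 between 60 and 20 min.

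**Figure D5:**
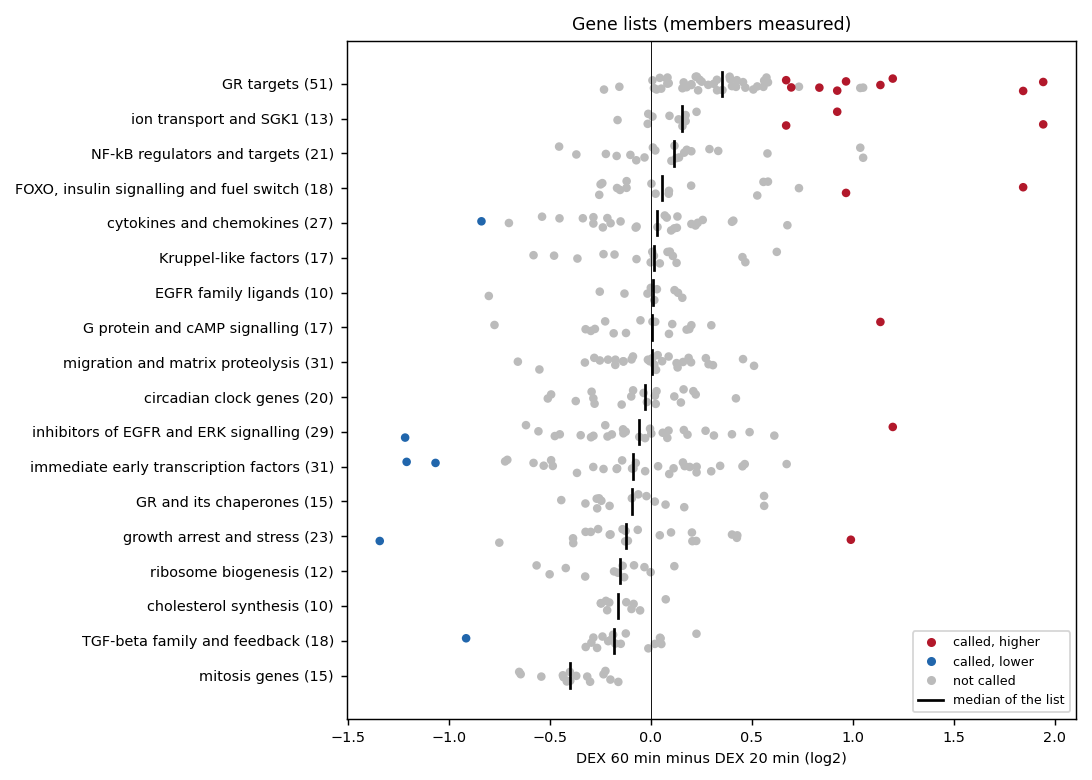
Difference between DEX 60 and DEX 20 min (log2, x axis) for each measured member of 18 gene lists (rows, with the number measured), with called genes in red (higher) and blue (lower), others in grey, and the median of each list as a black bar; vertical scatter within a row carries no value. The GR targets, at a median of 0.35, and the mitosis genes, at -0.40, are the lists farthest from 0. The lists were chosen with earlier results of these data known.

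The arrays of both times carried the epithelial identity of the line, with all 13 measured epithelial markers of 15, among them KRT5, KRT14 and TP63, above the stricter background of 5.97. Their summed log2 level was 131.1 to 131.2 at 60 min and 131.5 to 131.7 at 20 min. Fibroblast markers summed to 55.8 to 56.3 at 60 min and 53.9 to 54.6 at 20 min over 9 of 10 measured genes, with 3 above the stricter background; FAP is one of the 9 and moved with this sum, and the part of other markers in its rise was not tested. Leukocyte and endothelial markers summed to 57.7 to 59.9 at 60 min and 58.5 to 58.5 at 20 min over 10 of 12 measured genes, with 3 above the stricter background, beside the rise of KDR. Luminal markers summed to 61.0 to 61.7 at 60 min and 59.7 to 60.1 at 20 min over 9 of 10 measured genes. Of these, 6 lay above the stricter background, PGR and GATA3 among them, and the difference in the luminal sum was not tested. PGR encodes the progesterone receptor, which the paper proposes is probably absent from these cells. Whether a level above this limit shows expression was not tested. Arrays of the same time correlated at 0.983 (60 min) and 0.987 (20 min), against 0.976 to 0.979 between the times.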

How the data were processed

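The authors hybridized RNA of MCF10A cells to Affymetrix human exon arrays and used the Affymetrix Expression Console. Each deposited value is a linear intensity of 1 exon-level probeset (1 to 19500). How probes were summarized, how background was removed and which software version was used is not given in the sources used here. Intensities were taken to log2 without further normalization, since array quartiles lay within 0.0971 of each other.

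Probesets with 1 gene symbol in the platform annotation (354421 of 844005) entered; 14891 with several symbols and 474693 with none did not. The median of the symbol-free probesets, 4.65, was used as background, and the upper quartile, 5.97, as a stricter limit. For each gene with 3 or more probesets brighter than background on average (262233 kept), Tukey's median polish gave 1 value per array. RefSeq synonyms updated 2860 symbols, and 208 were not found. The number of arrays limits the precision.

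limma 3.58.1 (R 4.3.3) fitted group means over all 26 arrays with 10 residual degrees of freedom, and p-values were adjusted over 16600 genes (Benjamini-Hochberg). Named were the 15 largest rises and falls called, the 4 largest differences of each list, called members of lists with up to 5 of them, 10 genes that the study discusses, and the 5 largest differences each way between DEX and EGF. FOXO3, KLF6, PER1, EAF2, CNGB3, CTGLF1 and some list members were added after their values were seen. Members and lists were chosen with earlier results of these data known. The code was tested on simulated data. Alternatives were a replicate block, fitting the compared arrays alone, no or stricter brightness filters, quantile normalization, averaging probesets, trend and robust options of limma, other fold minimums and leaving out each array; the onset steps without each array, and in EGF+DEX arrays, were added after seeing the data.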

Additional observations from a re-analysis of the deposited data

Results flagged for a closer look

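The change between 20 and 60 min differed between DEX and EGF for 30 genes in the direct test of that difference (limma, adjusted over all genes, 2 arrays per group and time). Of the 17 genes with a larger value with DEX, 16 are among the genes named by rule, and the other was at 1.22. The 16 were PDK4 (a difference of changes of 2.25 on the log2 scale), SCNN1G (2.1), ZEB2 (1.9), SULT1E1 (1.68), FAM177B (1.63), KDR (1.44), BCL6 (1.41), RGS2 (1.31), ETNK2 (1.23), SGK1 (1.21), ABLIM3 (1.14), TXNIP (1.13), SGPP2 (1.07), ACSL1 (1.03), TSC22D3 (0.965) and ERRFI1 (0.89). FAM177B is a dim gene, with a mean of 5.08 over all arrays, and had 0.68 with DEX and -0.96 with EGF.

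Of the 13 with a smaller value with DEX, 7 are among the genes named by rule, and the other 6 lay between -1.19 and -0.91. The 7 were EREG (-1.97), KLHL15 (-1.74), HBEGF (-1.6), GDF15 (-1.42), MAP3K14 (-1.2), KLF10 (-1.2) and LHX5 (-1.11). KLHL15 and GDF15 fell with DEX and had 0.63 and 0.59 with EGF. MAP3K14, the NF-kB-inducing kinase, had -0.56 with DEX and 0.64 with EGF, and KLF10, a TGF-beta-induced Krüppel-like factor, -0.58 and 0.62.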

How the results depend on the processing

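Of the 42 called genes, 8 passed in every alternative tried (SCNN1G, PDK4, ZEB2, ETNK2, SULT1E1, ERRFI1, RGS2 and LRIG3), 34 lost the call in at least 1, and 0 changed sign. Fitting only the compared arrays gave 15 calls (13 higher, 2 lower), fewer samples entering the fit, and a 2-fold minimum 17 (11 and 6). Leaving out 1 array gave 11 to 17 calls, 9 to 12 higher and 1 to 5 lower, with a lone array assumed to vary like the other groups and the gene values not refitted. The lowest, 11, came without the second 60 min array, and without the first 60 min array it was 17; either 20 min array gave 13. The lower calls were 7 with no brightness filter and 9 with the mean of probesets, of which 4 and 6 were among the 14 lowered genes. Quantile normalization gave 54 calls, 40 higher and 14 lower. The stricter filter left 38 of the 42 genes to be tested. It gave 19 lower calls, of which 8 were among the 14 lowered genes. For 40 against 20 min (8 calls) the counts were 0 with only the compared arrays, 5 with no filter, 13 with quantile normalization, 16 with trend and robust settings, 5 at 2-fold, and 4 to 24 without 1 array, 24 (7 higher, 17 lower) without the first 40 min array. For 60 against 40 min (8 calls) they were 0, 1 with no filter, 4 with quantile normalization (4 higher, 0 lower, against 5 and 3), 4 with the mean of probesets, 2 at 2-fold, and 0 to 37 without 1 array, 37 without the first 40 min array. For EGF (10 calls) they were 0 with only the compared arrays, 22 with the mean of probesets, 18 with trend and robust settings, 5 at 2-fold and 0 to 16 without 1 array. For EGF+DEX (47 calls) they were 25, 16 at 2-fold and 9 to 62 without 1 array. For DEX minus EGF (30 calls) they were 2 with only the compared arrays and 4 to 26 without 1 array. The causes were not tested beyond the smaller number of arrays.

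With the replicate number as a block, 47 genes were called at 60 against 20 min (41 of the 42 among them) and 16 at 60 against 40 min; the deviations of same-numbered arrays correlated at 0.03 for 60 with 20 min, -0.08 for 60 with 40 min and 0.16 for 40 with 20 min, and from -0.20 to 0.31 over all pairs of groups, so the numbers were not taken to pair the arrays. Differences near 0 that changed sign when 1 array was left out ranged from -0.10 to 0.27 for DUSP1, from -0.28 to 0.31 for KLF6, from -0.82 to 0.073 for NFIL3, from -0.31 to 0.053 for NRG1, from -0.064 to 0.12 for PER1, from -0.54 to 0.55 for SPRY4, from -0.038 to 0.35 for TGFA and from -0.019 to 0.59 for ZFP36L2; leaving out the first 60 min array turned all of these but NRG1, which turned without the second. The sign also turned for EGF (-0.036), FAM177B (-0.16), KLF6 (-0.028) and THY1 (-0.062) with no brightness filter, for EGF (-0.067) with the stricter one and for KLF6 (-0.035) with the mean of probesets. Of the genes named but not called, 9 passed in at least 1 alternative, TNFAIP3, BIRC3 and GLUL among them.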
